A study of Homo sapiens with 18 samples.

Results

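The genes of Mediator, TFIID and the initiation factors TFIIA, TFIIB, TFIIE and TFIIF were followed by 3′ end RNA sequencing in 18 libraries of 2 human cell lines, labelled XG1 and AMO1 and described as multiple myeloma, the malignancy of plasma cells. The genes were taken by name as the subunits of these complexes, without the cyclin and CDKs of the Mediator kinase module, which gave 49 of the 26249 genes in the tables: 28 of Mediator, 14 of TFIID and 7 of the other factors. Cells of each line had been exposed for 6 h to DMSO (the solvent), to 100 nM or to 1000 nM of YKL-5-124, a covalent inhibitor of CDK7, which made 6 groups of 3 libraries. The labels name no genetic change in any group, and they do not say that replicates came from separate cultures. Each p is therefore set against a spread between libraries that could be purely technical. Values are taken as FPKM, a fragment count divided by transcript length and by library size. A count of 0 would give 0 FPKM, but no library held a value of 0. The commonest value of a library was 0.075 to 0.133 FPKM, so the values carry a floor that differs between libraries. How this floor was set, and whether other rescaling was applied, was not tested. The lowest value among the 49 genes, 0.564 FPKM, lay above it. Because the reads come from 3′ ends, levels of different genes are not set against each other below, only levels of 1 gene between libraries.

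RNA polymerase II cannot start transcription alone. TFIID, built from TBP and the TAF proteins, recognises the core promoter. TFIIA and TFIIB hold TBP on the DNA and position the polymerase, TFIIF travels with the polymerase, and TFIIE brings in TFIIH, the complex that carries the kinase CDK7. Mediator bridges this assembly and the transcription factors bound at enhancers. Its head and middle modules contact the polymerase, MED14 is the scaffold along which the modules are joined, the tail binds activators, and a detachable kinase module with MED12 and MED13 can block the polymerase contact. CDK7 phosphorylates the polymerase tail while this assembly stands at the promoter, and Mediator stimulates that step.

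The libraries labelled XG1 did not carry the expression of plasma cells. A list of 10 plasma cell genes held 1 that reached 10 FPKM in every one of the 9 and 5 that stayed under 1 FPKM there, while for AMO1 these numbers were 9 and 0. The summed level of the list was 44.4 to 75.9 FPKM in XG1 libraries and 4808 to 7249 FPKM in AMO1. Of 10 erythroid (red cell) genes, 7 reached 10 FPKM in every XG1 library and 1 in every AMO1 library, with sums of 2681 to 3213 and 24.2 to 60.1 FPKM. Lists of 6 T cell and myeloid and 6 stromal and epithelial genes summed to 3.38 to 9.08 and 79.2 to 110.0 FPKM in XG1 and to 1.17 to 3.02 and 2.48 to 5.55 FPKM in AMO1. A library held 9284 to 10571 genes at 1 FPKM or more. The lowest numbers were in XG1 1000 nM replicate 2 (9284) and AMO1 100 nM replicate 2 (9495). In bulk libraries, a lower level from fewer cells of a kind and from less RNA in each cell cannot be told apart. Read depth cannot be known from FPKM, and no counting interval is given. The part of these differences in the results below was not tested.

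Promoter sequences are shown for TAF12, the member called higher by limma in most dose comparisons, and for MED1, MED4, MED17 and MED20, the genes of the RefSeq table whose fall at some dose held under all 26 other settings tried. They come from RefSeq (GRCh38.p14), which held 38 of the 49 promoters, run 5′ to 3′ in the direction of the gene and end before the first exon. Capitals mark a CCAAT box (CCAAT), an ETS motif (CCGGAAGT) or an E-box (CACGTG), on either strand.
TAF12, chr1:28643086-28643227, minus strand: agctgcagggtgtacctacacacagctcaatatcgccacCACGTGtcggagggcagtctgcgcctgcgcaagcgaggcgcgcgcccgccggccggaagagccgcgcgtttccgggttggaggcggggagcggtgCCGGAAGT
MED1, chr17:39451287-39451513, minus strand: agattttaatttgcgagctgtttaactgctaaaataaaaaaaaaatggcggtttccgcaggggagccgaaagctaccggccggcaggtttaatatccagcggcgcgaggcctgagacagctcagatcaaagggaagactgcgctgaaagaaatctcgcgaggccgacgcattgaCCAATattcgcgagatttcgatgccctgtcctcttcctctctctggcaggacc
MED17, chr11:93784032-93784226, plus strand: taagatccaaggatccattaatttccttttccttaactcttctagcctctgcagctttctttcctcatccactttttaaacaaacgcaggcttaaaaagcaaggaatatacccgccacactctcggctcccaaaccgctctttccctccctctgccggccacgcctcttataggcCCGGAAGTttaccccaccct
MED4, chr13:48095132-48095354, minus strand: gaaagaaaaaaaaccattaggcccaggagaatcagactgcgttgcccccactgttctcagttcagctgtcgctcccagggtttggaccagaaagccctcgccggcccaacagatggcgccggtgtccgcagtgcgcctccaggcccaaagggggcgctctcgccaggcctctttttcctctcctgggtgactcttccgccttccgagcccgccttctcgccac
MED20, chr6:41920944-41921004, minus strand: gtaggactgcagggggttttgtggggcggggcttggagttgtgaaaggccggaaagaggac
The stretch of TAF12 held an E-box and an ETS motif, that of MED1 a CCAAT box and that of MED17 an ETS motif, while none of the 7 motifs searched lay in those of MED4 and MED20. Shares were taken over windows of 300 bases, both strands, in the 38 promoters and in those of 8917 tested genes. The ETS motif was in 9 of the 38 (23.7%, against 9.43% of the tested genes) and a YY1 motif, AAGATGGCG, in 7 (18.4% against 4.32%). CCAAT was in 28.9% against 37.3%, the E-box in 7.89% against 10.6%, a TATA box (TATAAA) in 7.89% against 5.34%, a CRE (TGACGTCA) in 5.26% against 3.43% and a palindromic NRF1 motif in 2.63% against 2.33%. No motif searched contains another, and the matches describe letters, not bound sites. Of 9 promoters of genes called lower at any dose, 2 held the ETS motif and 1 the YY1 motif, beside 6 and 6 of 28 promoters of genes called in neither direction.

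All 49 genes were expressed in both lines. Each had a group mean of at least 1 FPKM and was tested, and 46 to 49 of them reached 1 FPKM in a given library. MED11 had the lowest single value, 0.564 FPKM in XG1 1000 nM replicate 2. Its levels, like those of MED15, MED25, MED26, MED28, MED31, TAF4, TAF5, TAF6, TAF7 and TAF11, are uncertain. For these 11 genes another annotated gene (GENCODE v29) has exons within the last 500 bases, and use of strand was not given in the sources used here. Reads of such pairs cannot be told apart.

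The lines were first compared in DMSO. Here 12 of the 49 genes were higher in XG1 libraries, 8 were lower and 29 were not called (limma on log2(FPKM + 1), adjusted p under 0.05). That is 40.8% of the 49 genes, beside 62.7% of all 12204 genes tested (28.3% higher, 34.4% lower). The median difference was 0.08 over the 49 genes and -0.08 over all genes. TFIID was one-sided, with 6 of its 14 subunits higher in XG1 libraries and 0 lower, also at an unadjusted p under 0.05. Mediator split, with 5 of 28 subunits higher and 7 lower, and of the other factors 1 was higher and 1 lower of 7. The balance of Mediator moved with the scaling, to 7 higher and 7 lower after centring each library on its median, 5 and 5 after spike-in scaling and 8 and 4 after quantile normalization, where 17 of the 49 genes were higher and 4 lower in all. TFIID kept 0 lower under these 3 scalings, and had 1 lower, TAF11, without AMO1 DMSO replicate 3. Between the lines, 44 ERCC spike-in RNAs, whose amounts were meant to be equal, ranged from -1.46 to 1.06 log2 with an SD of 0.54, and 3 exceeded 2-fold. Replicates do not show this error, which a difference between lines can carry.

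Among Mediator genes, MED15, a tail subunit that binds activators, was at 21.6, 22 and 16.9 FPKM in the XG1 DMSO libraries and 3.89, 3.49 and 4.2 FPKM in those of AMO1 (log2 difference 2.12 ± 0.16, adjusted p = 5.54e-10). MED20, a head subunit, was at 22.3, 19.7 and 19.6 against 4.7, 5.78 and 5.12 FPKM (1.80 ± 0.20, adjusted p = 1.72e-07). MED19, a middle subunit that meets the polymerase, was at 28.3, 29.8 and 26.3 against 9.95, 10.7 and 9.82 FPKM (1.38 ± 0.17, adjusted p = 6.59e-07). For each of these 3 genes, the lowest XG1 library stood above the highest AMO1 library. The reverse held for middle subunits MED10, at 57.5, 49.2 and 50.1 against 271, 243 and 176 FPKM (-2.10 ± 0.16, adjusted p = 6.69e-10), and MED9, at 11.2, 7.57 and 5.76 against 37.8, 37.6 and 26.6 FPKM (-1.96 ± 0.21, adjusted p = 7.77e-08). MED26, which can dock elongation factors, was also lower in XG1 libraries, at 6.91, 8.84 and 7.3 against 19.2, 18.1 and 12.9 FPKM (-1.02 ± 0.19, adjusted p = 1.12e-04). MED15, MED10 and MED9 differed by more than any of the 44 spike-ins did, and MED20 too. Smaller calls were MED17 (0.74) and MED1 (0.40) higher, and MED4 (-0.50), MED8 (-0.51), MED14 (-0.47) and MED24 (-0.53) lower. The groups overlapped for MED8 and MED24.

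Of TFIID, TBP itself, the subunit that binds the TATA element, was at 27.1, 20.7 and 16.1 FPKM in XG1 and 10.1, 7.93 and 11 FPKM in AMO1 (log2 difference 1.05 ± 0.21, adjusted p = 2.03e-04). TAF8, which joins TFIID during its assembly, was at 4.74, 3.21 and 3.77 against 1.09, 1.13 and 1.25 FPKM (1.18 ± 0.17, adjusted p = 4.23e-06). TAF12, a histone-fold subunit that TFIID shares with the coactivator SAGA, was at 32.1, 30.1 and 28.8 against 17.1, 11.4 and 13.1 FPKM (1.09 ± 0.16, adjusted p = 4.38e-06). None of these 3 pairs of groups overlapped. TAF2 (0.77), TAF5 (0.78) and TAF9 (0.60) were also called higher. GTF2A2, the small subunit of TFIIA, was at 48, 34.5 and 33.9 against 15.5, 18.6 and 18.6 FPKM (1.09 ± 0.18, adjusted p = 3.03e-05), and GTF2F2, the small subunit of TFIIF, was at 29.4, 25.2 and 27.2 against 37.7, 46 and 37.5 FPKM (-0.55 ± 0.18, adjusted p = 0.012). Of these 20 calls, 14 held under all 26 alternative settings. The exceptions were MED1, MED4, MED8, MED14, MED24 and GTF2F2, and MED8 was lost most often, in 10 of 26.

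**Figure D1:**
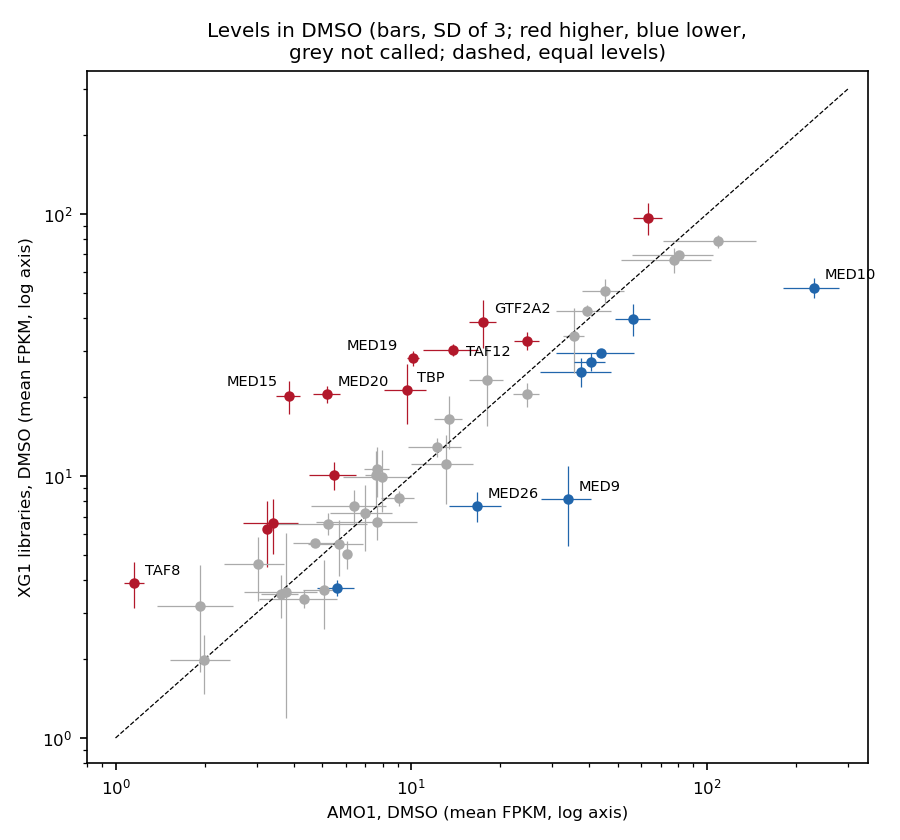
Mean FPKM of the 49 genes in DMSO, AMO1 on the x axis and XG1 libraries on the y axis, both log, with bars for the SD of 3 libraries. Red points were called higher in XG1 libraries, blue points lower and grey points neither, and MED15 and MED20 lie far above the dashed line of equal levels while MED10 and MED9 lie far below it.

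With the inhibitor, 2 or 3 of the genes changed at 100 nM and 8 or 9 at 1000 nM, where all but TAF12 in XG1 libraries were lower. At 100 nM, 1 of the 49 rose and 2 fell in XG1 libraries, beside 6.61% of all genes tested called (2.63% higher, 3.98% lower). In AMO1 1 rose and 1 fell, beside 2.2% of all genes (0.434% higher, 1.76% lower). At 1000 nM, 1 rose and 8 fell in XG1 libraries, which is 18.4% of the 49 beside 17.6% of all genes (1.9% higher, 15.7% lower). In AMO1 0 rose in limma (1 at an unadjusted p under 0.05) and 8 fell, 16.3% beside 17.1% (1.78% higher, 15.4% lower). The shares at 1000 nM were thus near those of all genes. The doses of a line share their DMSO libraries. Groups that did not overlap were counted for 15 genes lower and 2 higher in XG1 at 1000 nM (30.6% and 4.08%, beside 28% and 4.15% of all genes) and for 19 lower and 2 higher in AMO1 (38.8% and 4.08%, beside 31.2% and 4.44%).

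**Figure D2:**
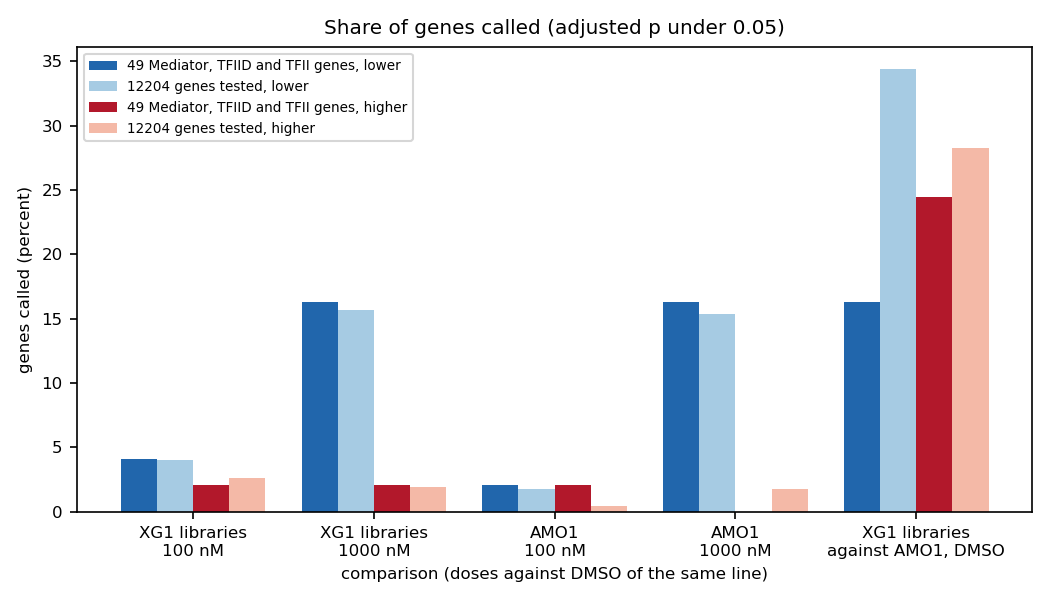
Share of genes called higher or lower (adjusted p under 0.05, limma) in each dose comparison, for the 49 genes and for all 12204 genes tested, with XG1 libraries against AMO1 in DMSO at the right. At 1000 nM the bars for lower genes stand at 16.3% of the 49 genes in both lines, beside 15.7% and 15.4% of all genes.

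By complex, the falls at 1000 nM on the deposited scale lay mostly in Mediator, the largest set, with 7 of its 28 genes in XG1 libraries (25%, beside 15.7% of all genes) and 6 in AMO1 (21.4%, beside 15.4%), all of them in the head or the middle module. After centring, 3 Mediator genes were lower (MED8, MED20 and MED21) and 3 higher (MED9, MED15 and MED26) in XG1 libraries, and 2 were lower (MED1 and MED17) in AMO1. The tail (9 genes), the kinase module (MED12 and MED13) and the scaffold MED14 had no call at either dose in either line in limma on the deposited scale, with 1 unadjusted p under 0.05 in the tail in XG1 libraries at each dose and 2 in AMO1 at 1000 nM. Other settings did call tail genes. MED15 was higher in XG1 libraries at 1000 nM after centring and at both doses after quantile normalization, which also called MED24 and MED27 higher at 1000 nM. TFIID had 1 rise and 1 fall in XG1 libraries and 1 fall in AMO1. The 7 genes of TFIIA, TFIIB, TFIIE and TFIIF had 0 calls in XG1 libraries at 1000 nM (1 unadjusted p under 0.05) and 1 fall in AMO1. These groups are small, and differences between them were not tested. Of the 8 genes that fell in each line at 1000 nM, 3 were common to both, MED1, MED21 and MED22, which is 37.5% of each list, beside 48.3% and 49.5% of the 1920 and 1874 genes called lower among all genes tested. This count depended on the setting. With a pseudocount of 0.1 or 5 MED1 and MED22 were shared, under spike-in scaling and the replicate block MED1 alone, and after centring and quantile normalization 0 genes, as without XG1 1000 nM replicate 2. Without XG1 DMSO replicate 3 or AMO1 DMSO replicate 3 the count was 4, in the latter case with MED8 and GTF2E2 among them.

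**Figure D3:**
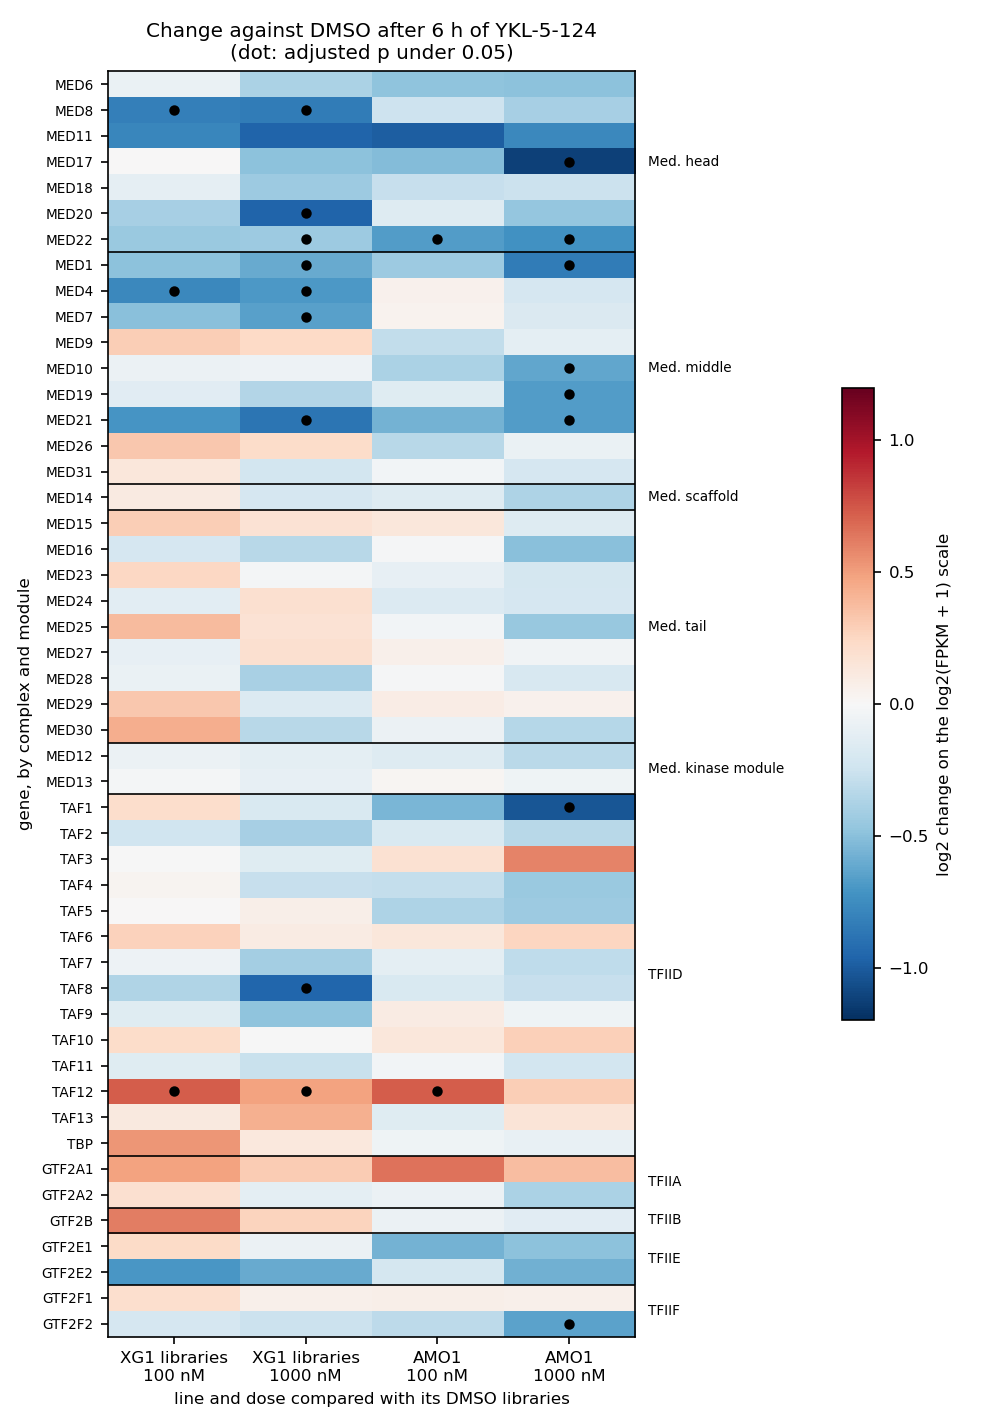
Log2 change of each of the 49 genes against DMSO at 100 and 1000 nM in each line, grouped by complex and module, with colour for the change and a dot for adjusted p under 0.05 (limma). Dots at 1000 nM fall mainly in the head and middle modules of Mediator, and TAF12 is the gene with dots on a rise.

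In the head module, which forms the main contact with the polymerase, MED20 was at 22.3, 19.7 and 19.6 FPKM in the XG1 DMSO libraries, 14.6, 16.2 and 15.3 at 100 nM and 10.5, 7.05 and 13.7 at 1000 nM. Both dose groups lay below all DMSO libraries. The change passed the test at 1000 nM (log2 change -0.96 ± 0.20, adjusted p = 0.00298), where it held under all 26 alternatives, and not at 100 nM (-0.39 ± 0.20, adjusted p = 0.283). In AMO1, where MED20 was lower from the start, it was at 4.7, 5.78 and 5.12 FPKM in DMSO, 5.86, 3.34 and 4.8 at 100 nM and 3.79, 2.82 and 3.95 at 1000 nM, with no call (-0.46 ± 0.20, adjusted p = 0.127 at 1000 nM).

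MED8, which tethers MED18 and MED20 to the head, fell in XG1 libraries at both doses. It was at 30.6, 28.7 and 29.1 FPKM in DMSO, 15.3, 21.1 and 13.1 at 100 nM (-0.82 ± 0.21, adjusted p = 0.0213) and 14.9, 13.1 and 20.8 at 1000 nM (-0.84 ± 0.21, adjusted p = 0.00921). No treated library reached the DMSO range. In AMO1 the groups overlapped, at 54.6, 47.5 and 29.4 FPKM in DMSO, 37.2, 35.1 and 34.8 at 100 nM and 28.3, 31.3 and 36.9 at 1000 nM (-0.40 ± 0.21, adjusted p = 0.217 at 1000 nM). Without AMO1 DMSO replicate 3, the lowest of its group, MED8 was called lower in AMO1 at 1000 nM (limma, -0.66, adjusted p = 0.0175). The XG1 call at 100 nM was lost in 6 of 26 alternatives, among them without any 1 of the 3 DMSO libraries (largest adjusted p = 0.112, without XG1 100 nM replicate 3), and that at 1000 nM without XG1 1000 nM replicate 2 (adjusted p = 0.0594).

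MED17, the central subunit of the head, had its call in AMO1. In AMO1 it was at 3.27, 3.25 and 3.25 FPKM in DMSO, 2.03, 1.84 and 2.07 at 100 nM and 1.08, 0.627 and 1.21 at 1000 nM, so that the 3 groups did not overlap. The change at 1000 nM was -1.12 ± 0.21, adjusted p = 0.00117 and held under all 26 alternatives; that at 100 nM was -0.52 ± 0.21, adjusted p = 0.227. XG1 libraries overlapped, at 8.09, 6.12 and 4.57 FPKM in DMSO, 5.55, 8.19 and 5.07 at 100 nM and 4.75, 2.93 and 4.76 at 1000 nM (-0.49 ± 0.21, adjusted p = 0.113 at 1000 nM). Without XG1 DMSO replicate 3, MED17 was called lower in XG1 libraries at 1000 nM too (limma, -0.67, adjusted p = 0.0464). The difference between the lines' responses was not called.

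MED22, a small head subunit, was lower in every treated library of both lines than in any DMSO library of its line. In AMO1 it was at 25.6, 26.3 and 21.7 FPKM in DMSO, 16.2, 12.9 and 16.1 at 100 nM (-0.67 ± 0.15, adjusted p = 0.0158) and 14.1, 13.2 and 15.9 at 1000 nM (-0.73 ± 0.15, adjusted p = 0.0020). XG1 libraries gave 22.5, 20.8 and 18.1 FPKM in DMSO, 14.5, 15.1 and 14.5 at 100 nM (-0.45 ± 0.15, adjusted p = 0.0728) and 13.4, 15.3 and 15.8 at 1000 nM (-0.44 ± 0.15, adjusted p = 0.0421). The XG1 call at 1000 nM was among the weakest and ended in 16 of 26 alternatives. At 100 nM MED22 was called lower in XG1 libraries in 3 of 26, among them centring (limma, -0.43, adjusted p = 0.0429) and quantile normalization (-0.35, adjusted p = 0.0456). The AMO1 call at 100 nM ended after centring and without AMO1 DMSO replicate 1 or 2 or AMO1 100 nM replicate 2. It also ended when only the libraries compared were fitted, with its largest adjusted p, 0.166. The AMO1 call at 1000 nM ended after centring (adjusted p = 0.0528). The head subunits MED6, MED11 and MED18 were not called at any dose on the deposited scale, with changes of -0.38, -0.96 and -0.43 in XG1 libraries and -0.49, -0.78 and -0.26 in AMO1 at 1000 nM. MED11 was called lower at 1000 nM in each line, and MED6 in AMO1, without some single libraries.

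In the middle module, MED1, the subunit through which nuclear receptors and GATA factors bind Mediator, was lower in treated cells of both lines. In AMO1 it was at 25.1, 26.7 and 22 FPKM in DMSO, 19.8, 15.1 and 18.9 at 100 nM (-0.44 ± 0.15, adjusted p = 0.139) and 13.9, 13.4 and 12.6 at 1000 nM (-0.84 ± 0.15, adjusted p = 0.00089). XG1 libraries gave 32.8, 35.3 and 30.3 FPKM in DMSO, 22.2, 25.2 and 21.7 at 100 nM (-0.49 ± 0.15, adjusted p = 0.0556) and 23.9, 17.5 and 22.6 at 1000 nM (-0.61 ± 0.15, adjusted p = 0.00896). No treated group overlapped its DMSO group. The AMO1 call held under all 26 alternatives, and the XG1 call ended without XG1 1000 nM replicate 2 (adjusted p = 0.0561), after centring (adjusted p = 0.0622) and after quantile normalization (adjusted p = 0.0613). At 100 nM MED1 was called lower in XG1 libraries in 7 of 26 alternatives, among them centring (limma, -0.48, adjusted p = 0.00783) and quantile normalization (-0.37, adjusted p = 0.0213). In AMO1 at 100 nM it was called in 1, without AMO1 DMSO replicate 3 (-0.52, adjusted p = 0.0456).

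MED4, which with MED9 and MED7 builds the middle module, fell in XG1 libraries. It was at 46.1, 36.3 and 36.6 FPKM in DMSO, 19.9, 27.9 and 20.9 at 100 nM (-0.77 ± 0.15, adjusted p = 0.00424) and 24.3, 22 and 26.1 at 1000 nM (-0.69 ± 0.15, adjusted p = 0.00406), with no overlap with DMSO. AMO1 libraries overlapped, at 55.5, 64.5 and 49.2 FPKM in DMSO, 54, 61.8 and 59.2 at 100 nM (0.05 ± 0.15, adjusted p = 0.951) and 49.7, 49.2 and 47.3 at 1000 nM (-0.20 ± 0.15, adjusted p = 0.428). The XG1 call at 100 nM held under all 26 alternatives, and that at 1000 nM ended after centring (adjusted p = 0.0749).

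MED21, which pairs with MED7 in a hinge of the middle module, was at 12.6, 11.1 and 8.09 FPKM in XG1 DMSO libraries, 4.63, 7.92 and 5.83 at 100 nM (-0.71 ± 0.23, adjusted p = 0.0685) and 4.58, 3.85 and 8.0 at 1000 nM (-0.87 ± 0.23, adjusted p = 0.0122). In AMO1 it was at 7.32, 7.18 and 8.49 FPKM in DMSO, 5.19, 4.17 and 5.16 at 100 nM (-0.57 ± 0.23, adjusted p = 0.219) and 3.55, 5.51 and 4.44 at 1000 nM (-0.67 ± 0.23, adjusted p = 0.0489). All 4 treated groups lay below their DMSO libraries. The AMO1 call was the weakest of the dose calls and was lost in 20 of 26 alternatives, with adjusted p up to 0.243. The XG1 call at 1000 nM ended without XG1 DMSO replicate 1 or XG1 1000 nM replicate 2. It also ended when only the libraries compared were fitted (adjusted p = 0.076). At 100 nM MED21 was called lower in XG1 libraries in 6 of 26 alternatives, among them centring (limma, -0.69, adjusted p = 0.0222) and quantile normalization (-0.72, adjusted p = 0.0197).

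MED19, at 9.95, 10.7 and 9.82 FPKM in AMO1 DMSO libraries, was at 11.1, 6.45 and 10.5 at 100 nM and 5.54, 5.38 and 7.32 at 1000 nM (-0.67 ± 0.17, adjusted p = 0.0108). In XG1 libraries it was at 28.3, 29.8 and 26.3 FPKM in DMSO, 26.2, 24.6 and 25.5 at 100 nM and 19.6, 23.8 and 22.1 at 1000 nM (-0.36 ± 0.17, adjusted p = 0.165). Both 1000 nM groups lay below DMSO, and the call was in AMO1. It ended without AMO1 1000 nM replicate 1 or 2, after centring (adjusted p = 0.175) and after quantile normalization (adjusted p = 0.106). MED10 also fell in AMO1 at 1000 nM, from 230.2 ± 48.8 to 147 ± 14 FPKM (mean ± SD, n = 3; -0.63 ± 0.16, adjusted p = 0.0117), and MED7 in XG1 libraries, from 9.92 ± 2.62 to 5.82 ± 0.0487 FPKM (-0.65 ± 0.20, adjusted p = 0.0288). The MED7 call was lost in 8 of 26 alternatives and the MED10 call in 5, both after centring. MED31 had no call at any dose. MED9 had none on the deposited scale (0.24 ± 0.21, adjusted p = 0.494 in XG1 libraries at 1000 nM), but a rise there passed the test with centring (0.52, adjusted p = 0.0182) or quantile normalization (0.57, adjusted p = 0.0074).

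MED26 was not called at any dose on the deposited scale. In XG1 libraries it was at 6.91, 8.84 and 7.3 FPKM in DMSO, 9.11, 12.1 and 8.64 at 100 nM (0.33 ± 0.19, adjusted p = 0.362) and 9.09, 7.79 and 10.4 at 1000 nM (0.22 ± 0.19, adjusted p = 0.495). AMO1 gave 19.2, 18.1 and 12.9 FPKM in DMSO, 13.7, 10.5 and 14.8 at 100 nM (-0.33 ± 0.19, adjusted p = 0.439) and 13.8, 14 and 19.3 at 1000 nM (-0.08 ± 0.19, adjusted p = 0.848). Treated and DMSO libraries overlapped in both lines. With other scalings MED26 was called higher in XG1 libraries, at 1000 nM after centring (0.49, adjusted p = 0.0167) and at 100 nM (0.42, adjusted p = 0.0337) and 1000 nM (0.54, adjusted p = 0.00687) after quantile normalization.

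The scaffold MED14 overlapped between doses too. It was at 3.59, 4.04 and 3.58 FPKM in XG1 DMSO libraries, 4.4, 3.3 and 4.69 at 100 nM (0.11 ± 0.19, adjusted p = 0.842) and 3.85, 2.44 and 3.15 at 1000 nM (-0.21 ± 0.19, adjusted p = 0.522). AMO1 libraries were at 6.33, 5.77 and 4.72 FPKM in DMSO, 5.46, 3.65 and 5.89 at 100 nM (-0.15 ± 0.19, adjusted p = 0.799) and 3.35, 4.16 and 4.86 at 1000 nM (-0.37 ± 0.19, adjusted p = 0.206). MED12, which activates the kinase of the kinase module, was at 4.28, 3.27 and 3.05 FPKM in XG1 DMSO libraries, 3.64, 3.14 and 3.08 at 100 nM (-0.07 ± 0.19, adjusted p = 0.908) and 3.82, 2.47 and 3.31 at 1000 nM (-0.11 ± 0.19, adjusted p = 0.755). In AMO1 MED12 was at 4.03, 3.79 and 3.05 FPKM in DMSO, 3.53, 2.47 and 3.52 at 100 nM (-0.15 ± 0.19, adjusted p = 0.798) and 2.16, 2.33 and 3.68 at 1000 nM (-0.33 ± 0.19, adjusted p = 0.268). Its groups overlapped everywhere. MED13, which links the kinase module to Mediator, changed by -0.10 in XG1 libraries and -0.05 in AMO1 at 1000 nM.

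The 9 tail genes ranged from -0.39 to 0.19 in XG1 libraries and from -0.50 to 0.06 in AMO1 at 1000 nM. MED16 in AMO1 came nearest to a call (-0.50 ± 0.17, adjusted p = 0.0507), followed by MED28 in XG1 libraries (-0.39 ± 0.14, adjusted p = 0.0596). Both were called lower under some alternatives, MED16 in 6 of 26 and MED28 in 2. Calls in the other direction were those of MED15 in XG1 libraries at 1000 nM after centring (0.47, adjusted p = 0.0201) and, after quantile normalization, of MED15 at 100 nM (0.44, adjusted p = 0.0324) and of MED15 (0.52, adjusted p = 0.0102), MED24 (0.52, adjusted p = 0.0363) and MED27 (0.52, adjusted p = 0.012) at 1000 nM. The median over the tail was -0.02 in XG1 libraries and -0.21 in AMO1, beside -0.19 and -0.18 over all genes tested. Over the head it was -0.49 in both lines, and over the middle module -0.36 in XG1 libraries and -0.20 in AMO1.

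In TFIID, TAF12 was the gene that rose on the deposited scale. In XG1 libraries it was at 32.1, 30.1 and 28.8 FPKM in DMSO, 52.1, 50.3 and 50.2 at 100 nM (0.73 ± 0.16, adjusted p = 0.00787) and 42.2, 42.9 and 43.5 at 1000 nM (0.49 ± 0.16, adjusted p = 0.0371). The 3 groups did not overlap, and the 100 nM libraries were the highest. AMO1 gave 17.1, 11.4 and 13.1 FPKM in DMSO, 25.2, 19 and 26.5 at 100 nM (0.73 ± 0.16, adjusted p = 0.0154) and 18, 14.8 and 18.6 at 1000 nM (0.30 ± 0.16, adjusted p = 0.213). Here the 100 nM libraries lay above DMSO, and those at 1000 nM overlapped with it. The XG1 call at 100 nM held under all 26 alternatives. The XG1 call at 1000 nM ended when any 1 of the 3 DMSO or 3 treated XG1 libraries was left out (adjusted p up to 0.0987), and with no filter on low values (adjusted p = 0.0685). The AMO1 call ended without AMO1 DMSO replicate 2 or AMO1 100 nM replicate 1 or 3. It also ended when only the libraries compared were fitted, with its largest adjusted p, 0.194.

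**Figure D4:**
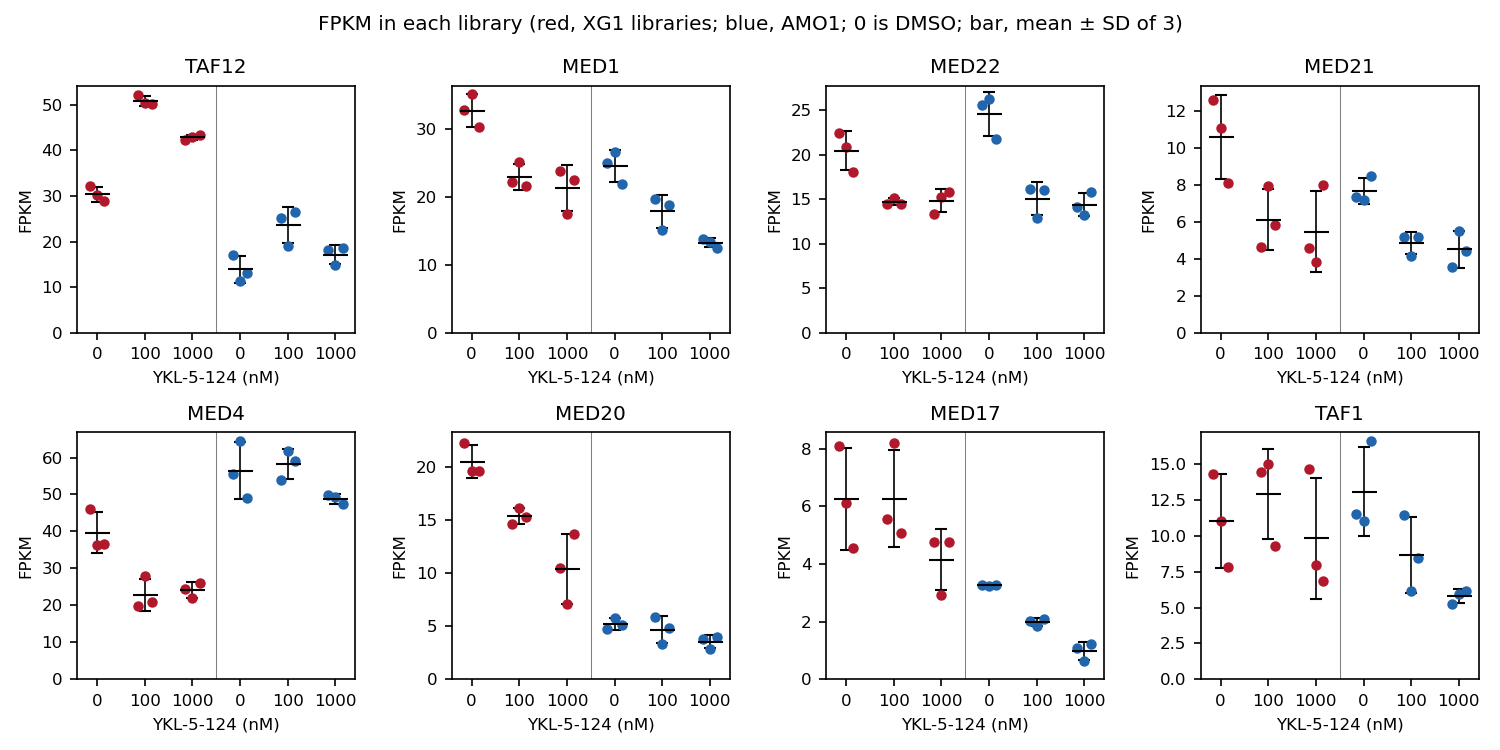
FPKM in each of the 18 libraries for TAF12, MED1, MED22, MED21, MED4, MED20, MED17 and TAF1 (red, XG1 libraries; blue, AMO1; bars, mean ± SD of 3), with the dose in nM on the x axis, where 0 is DMSO. TAF12 in XG1 libraries climbs from 28.8 to 32.1 FPKM in DMSO to 50.2 to 52.1 FPKM at 100 nM, while MED17 in AMO1 drops from 3.25 to 3.27 FPKM to 0.627 to 1.21 FPKM at 1000 nM.

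TAF8 fell in XG1 libraries at 1000 nM. It was at 4.74, 3.21 and 3.77 FPKM in DMSO, 2.63, 3.33 and 2.48 at 100 nM (-0.36 ± 0.17, adjusted p = 0.229) and 1.94, 1.1 and 1.61 at 1000 nM (-0.95 ± 0.17, adjusted p = 0.000784), a call that held under all 26 alternatives. AMO1 levels were near 1 FPKM throughout, at 1.09, 1.13 and 1.25 in DMSO, 1.15, 0.787 and 0.772 at 100 nM and 0.766, 0.822 and 0.763 at 1000 nM (-0.27 ± 0.17, adjusted p = 0.297), and on the log2(FPKM + 1) scale the change of so low a gene is understated. TAF1, the largest TFIID subunit, whose bromodomains bind acetylated histones, fell in AMO1 at 1000 nM. It was at 11.5, 11.1 and 16.7 FPKM in DMSO, 11.5, 6.15 and 8.47 at 100 nM (-0.55 ± 0.27, adjusted p = 0.337) and 5.25, 5.97 and 6.19 at 1000 nM (-1.03 ± 0.27, adjusted p = 0.0116), and the call ended without AMO1 1000 nM replicate 1 (adjusted p = 0.0506), after centring (adjusted p = 0.0684) and after quantile normalization (adjusted p = 0.0999). XG1 libraries overlapped, at 14.3, 11 and 7.81 FPKM in DMSO, 14.5, 15 and 9.28 at 100 nM (0.22 ± 0.27, adjusted p = 0.738) and 14.7, 7.97 and 6.87 at 1000 nM (-0.19 ± 0.27, adjusted p = 0.707).

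TBP was not called at any dose on the deposited scale. XG1 libraries were at 27.1, 20.7 and 16.1 FPKM in DMSO, 27.4, 27.5 and 37.8 at 100 nM (0.53 ± 0.21, adjusted p = 0.146) and 26.9, 17.8 and 24.9 at 1000 nM (0.13 ± 0.21, adjusted p = 0.747), the 100 nM group lying just above DMSO and called higher after quantile normalization (0.69, adjusted p = 0.0347). AMO1 libraries were at 10.1, 7.93 and 11 FPKM in DMSO, 9.26, 11.2 and 7.55 at 100 nM (-0.05 ± 0.21, adjusted p = 0.979) and 8.58, 8.0 and 10.4 at 1000 nM (-0.09 ± 0.21, adjusted p = 0.849). TAF7, an inhibitor of TAF1 within TFIID, was not called either. It was at 45.1, 30.5 and 27.1 FPKM in XG1 DMSO libraries, 27.4, 34.7 and 34.2 at 100 nM (-0.07 ± 0.18, adjusted p = 0.915) and 25.8, 20.9 and 28.9 at 1000 nM (-0.41 ± 0.18, adjusted p = 0.118), and in AMO1 at 32.2, 37.2 and 36.9 FPKM in DMSO, 35.8, 29.5 and 32.7 at 100 nM (-0.12 ± 0.18, adjusted p = 0.852) and 28.2, 31.4 and 26.2 at 1000 nM (-0.30 ± 0.18, adjusted p = 0.272). Its AMO1 libraries at 1000 nM lay below DMSO. TAF3, which binds the promoter mark H3K4me3, was higher in all 3 AMO1 libraries at 1000 nM, 9.1, 8.3 and 9.61 FPKM against 6.26, 6.49 and 4.3 in DMSO, and missed the threshold (0.60 ± 0.21, adjusted p = 0.0591). It passed in 5 of 26 alternatives, among them centring (0.90, adjusted p = 0.00492), quantile normalization (0.84, adjusted p = 0.0106) and a pseudocount of 5 (adjusted p = 0.043). The other 8 TFIID genes, TAF2, TAF4, TAF5, TAF6, TAF9, TAF10, TAF11 and TAF13, had no call at either dose on the deposited scale. TAF10, another subunit shared with SAGA, was called higher in AMO1 at 1000 nM after centring (0.62, adjusted p = 0.0121) and quantile normalization (0.51, adjusted p = 0.00341), and in XG1 libraries after quantile normalization at 100 nM (0.36, adjusted p = 0.0255) and 1000 nM (0.31, adjusted p = 0.0463). TAF9 in XG1 libraries and TAF11 in AMO1 were called lower at 1000 nM without some single libraries.

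Of the other factors, GTF2F2 fell in AMO1 at 1000 nM, from 37.7, 46 and 37.5 FPKM in DMSO through 28.3, 35.5 and 33.3 at 100 nM to 25.3, 23.9 and 27 (-0.64 ± 0.18, adjusted p = 0.0179), and neither treated group overlapped DMSO. The call ended without AMO1 DMSO replicate 2 or AMO1 1000 nM replicate 1 or 2, after centring (adjusted p = 0.164) and after quantile normalization (adjusted p = 0.0826). The groups of its partner GTF2F1 overlapped, at 10.8, 15.2 and 10.9 FPKM in AMO1 DMSO libraries, 11.6, 11.8 and 15.3 at 100 nM (0.07 ± 0.19, adjusted p = 0.942) and 12.5, 11.9 and 13.6 at 1000 nM (0.06 ± 0.19, adjusted p = 0.908). XG1 libraries gave 14.1, 12.5 and 12.1 FPKM in DMSO, 13.7, 20.6 and 11.9 at 100 nM (0.20 ± 0.19, adjusted p = 0.606) and 14.6, 13 and 12.9 at 1000 nM (0.06 ± 0.19, adjusted p = 0.882).

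GTF2B, which encodes TFIIB, was at 20.5, 15.8 and 13.1 FPKM in XG1 DMSO libraries, 20.1, 30.0 and 26.6 at 100 nM (0.61 ± 0.23, adjusted p = 0.127) and 21.4, 13.5 and 26.5 at 1000 nM (0.27 ± 0.23, adjusted p = 0.471). In AMO1 it was at 13, 12.2 and 15 FPKM in DMSO, 15.6, 9.97 and 12.9 at 100 nM (-0.07 ± 0.23, adjusted p = 0.959) and 11.2, 10.4 and 14.9 at 1000 nM (-0.14 ± 0.23, adjusted p = 0.767). No group left the DMSO range as a whole. GTF2B was nevertheless called higher in XG1 libraries at both doses after centring (0.62, adjusted p = 0.027 at 100 nM and 0.56, adjusted p = 0.0344 at 1000 nM) and after quantile normalization (0.76, adjusted p = 0.012 and 0.63, adjusted p = 0.0267). GTF2E1, the large subunit of TFIIE, was at 4.23, 4.38 and 2.43 FPKM in XG1 DMSO libraries, 3.15, 6.22 and 4.22 at 100 nM (0.23 ± 0.24, adjusted p = 0.654) and 3.51, 2.12 and 4.92 at 1000 nM (-0.07 ± 0.24, adjusted p = 0.898). AMO1 gave 5.16, 5.73 and 4.27 FPKM in DMSO, 3.28, 2.91 and 3.01 at 100 nM (-0.57 ± 0.24, adjusted p = 0.237) and 3.38, 2.86 and 3.62 at 1000 nM (-0.49 ± 0.24, adjusted p = 0.164). Both treated AMO1 groups lay below DMSO without passing the test. The small subunit GTF2E2 came close to the threshold in XG1 libraries (-0.69 ± 0.21, adjusted p = 0.0569 at 100 nM and -0.61 ± 0.21, adjusted p = 0.0556 at 1000 nM) and was called lower in 6 and 4 of 26 alternatives, at 100 nM also after centring (-0.68, adjusted p = 0.0222). AMO1 at 1000 nM was close too (-0.58, adjusted p = 0.0686 in limma). There GTF2E2 was called lower in 1 of 26 alternatives, without AMO1 DMSO replicate 3 (-0.89, adjusted p = 0.00112). GTF2A1, from which the large TFIIA subunits are cut, and GTF2A2 had no call at any dose on the deposited scale.

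Scaling moved the balance of rises and falls. The median of all genes tested fell with 1000 nM, by 0.19 in XG1 libraries and by 0.18 in AMO1, while spike-in medians of the libraries stayed within -0.08 and 0.07 log2. The size of the fall rested in part on single libraries. With 1 library left out, the median change was -0.265 to -0.098 in XG1 libraries and -0.281 to -0.119 in AMO1. The value of -0.098 came without XG1 1000 nM replicate 2, the library with the fewest genes at 1 FPKM or more. After centring of libraries on their medians, 6 genes were called higher and 4 lower in XG1 libraries at 1000 nM in place of 1 and 8, and 4 higher and 2 lower in AMO1 in place of 0 and 8 (quantile normalization: 9 and 5, and 4 and 4). The median over the 49 genes went from -0.21 to 0.05 and from -0.27 to 0.02. Spike-in scaling left 1 higher and 7 lower in XG1 libraries and 0 and 7 in AMO1. Its factors are the spike-in medians above, which were already nearly level in the deposited values. It could therefore move little and is no separate check of the deposited scale. Summed FPKM was 741443 to 957143 in XG1 libraries and 1462900 to 2072840 in AMO1. Whether the values had been scaled to spike-ins before deposit was not tested. Genes called in the same direction with and without centring at 1000 nM were MED8, MED20, MED21, TAF8 and TAF12 in XG1 libraries and MED1 and MED17 in AMO1. At 100 nM they were MED4, MED8 and TAF12 in XG1 libraries and TAF12 in AMO1. GTF2A1, called nowhere on the deposited scale, was called higher in all 4 dose comparisons after centring (0.49, adjusted p = 0.0324 for XG1 at 100 nM, 0.59, adjusted p = 0.00989 at 1000 nM, 0.83, adjusted p = 0.00339 for AMO1 at 100 nM and 0.68, adjusted p = 0.00445 at 1000 nM), a gene singled out after its values were seen. The other genes called higher at 1000 nM after centring were GTF2B, MED9, MED15, MED26 and TAF12 in XG1 libraries and TAF3, TAF10 and TAF12 (0.62, adjusted p = 0.0175) in AMO1. Of these 8 calls, that of TAF12 in XG1 libraries was also made on the deposited scale. At 100 nM centring gave 3 higher and 6 lower in XG1 libraries and 2 and 0 in AMO1.

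**Figure D5:**
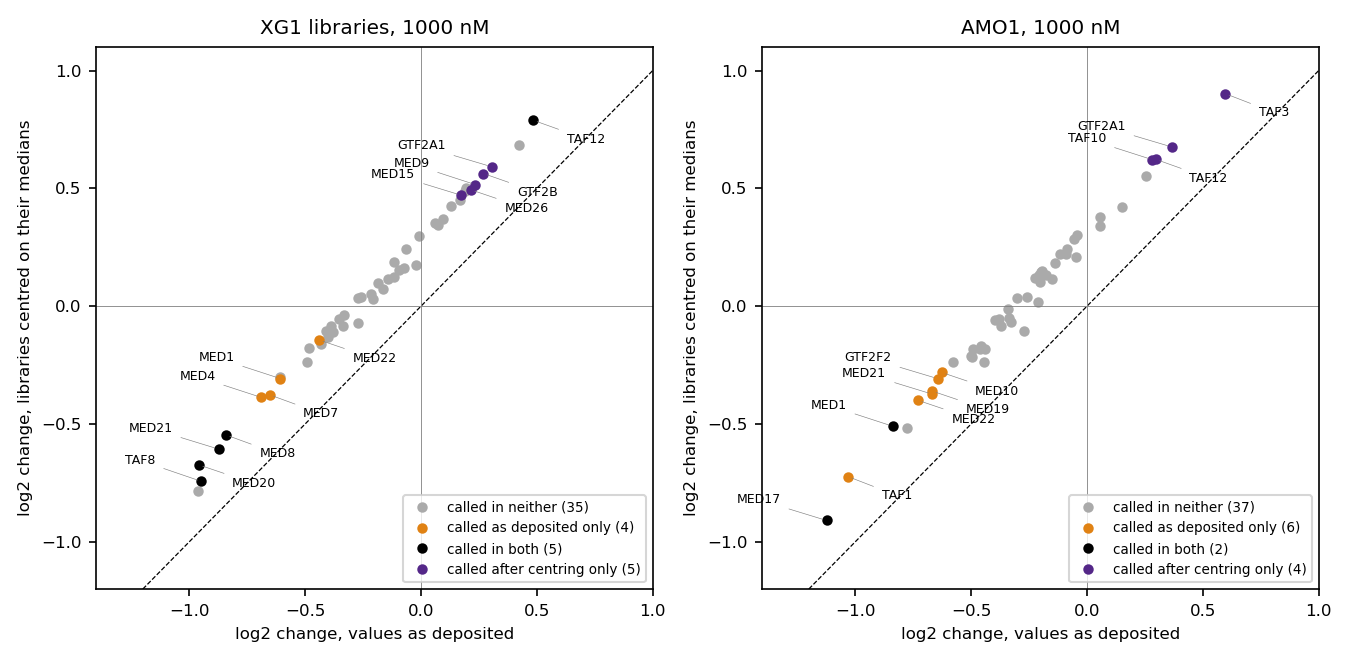
Log2 change at 1000 nM against DMSO of the 49 genes, as deposited (x axis) and after centring each library on its median (y axis), with the XG1 libraries on the left and AMO1 on the right. All points lie above the dashed line of equal values, and 5 genes in XG1 libraries and 2 in AMO1 were called on both scales.

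The difference between the lines' responses was tested directly. None of the 49 genes was called at 100 nM or at 1000 nM (limma, adjusted p under 0.05), beside 0.156% and 0.68% of all genes. At an unadjusted p under 0.05 in limma, a looser threshold, there were 4 and 7 of the 49. The share of all genes at that threshold is not given here. MED4 came nearest at 100 nM, where its change in XG1 libraries was lower than in AMO1 by 0.83 log2 in limma, the model over all genes (SE 0.22, unadjusted p = 0.00105, adjusted p = 0.157). This was called after centring (-1.02, adjusted p = 0.0244) and after quantile normalization (-0.78, adjusted p = 0.045). At 1000 nM TAF8 (-0.67 ± 0.24, adjusted p = 0.254) and TAF1 (0.85 ± 0.38, adjusted p = 0.434) were not called, nor was MED17 (0.63 ± 0.30, adjusted p = 0.469). MED10 was called after quantile normalization (0.69, adjusted p = 0.0201) against 0.56 ± 0.23, adjusted p = 0.378 on the deposited scale. The step from 100 to 1000 nM likewise had 0 calls in each line, beside 0.139% of all genes called in XG1 libraries and 0.18% in AMO1. At the looser unadjusted threshold of 0.05 (limma) there were 6 of the 49 in each line, again without the share of all genes. The lowest p values of this step belonged to MED30 (-0.77 ± 0.21, adjusted p = 0.107) and TAF8 (-0.59 ± 0.17, adjusted p = 0.114) in XG1 libraries and to MED19 (-0.53 ± 0.17, adjusted p = 0.254) in AMO1.

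Genes of related machinery were followed on fixed lists. Their counts stand beside the shares of all genes tested. At 1000 nM these were 15.7% lower and 1.9% higher in XG1 libraries and 15.4% and 1.78% in AMO1. At 100 nM they were 3.98% lower and 2.63% higher in XG1 libraries and 1.76% and 0.434% in AMO1. The lists are small, and their counts were not tested against these shares. Of 5 kinase module and paralog genes, CDK19, a paralog of the Mediator kinase CDK8, rose in XG1 libraries at both doses (log2 changes 0.94 and 0.71), being at 3.96 ± 0.335 against 2.07 ± 0.645 FPKM at 1000 nM against DMSO. In DMSO MED13L (1.05), MED12L (0.63) and CDK19 (0.69), paralogs of kinase module subunits, were higher in XG1 libraries and the cyclin CCNC (-0.88) was lower. Of 6 tested TFIID paralogs and TBP-like factors (of 10 listed), TBPL1 (-0.91) and TAF4B (-0.72) fell in AMO1 at 1000 nM, the latter not after centring (-0.46, adjusted p = 0.0897), and TBPL1 was at 45.9 ± 5.29 against 17.8 ± 4.6 FPKM in XG1 libraries against AMO1 in DMSO.

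SAGA, the coactivator that shares TAF9, TAF10 and TAF12 with TFIID, had 16 genes tested. At 1000 nM 1 rose and 3 fell in XG1 libraries and 2 fell in AMO1. TADA1 fell in all 4 dose comparisons (-0.72, -0.78, -1.09 and -1.12), and so did CCDC101, the gene of the SGF29 subunit (-0.93, -1.06, -0.99 and -1.70), XG1 libraries at 100 and 1000 nM being given first. TADA2B rose in XG1 libraries (0.71 and 0.57). These calls of TADA1, CCDC101 and TADA2B were also made after centring.

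TBP also serves polymerases I and III, and of 21 such factors 3 and 4 fell in XG1 libraries and 1 and 4 in AMO1 at 100 and 1000 nM. TAF1D, a subunit of the polymerase I factor SL1, fell in all 4 (-1.22, -1.44, -1.34 and -1.56, in the same order). Its level was 11.8 ± 1.26 against 36.7 ± 2.71 FPKM at 1000 nM against DMSO in AMO1. UBTF, an upstream factor of polymerase I, fell in 3 (-0.55, -0.87 and, in AMO1 at 1000 nM, -1.03). Of 12 RNA polymerase II subunits, 1 rose in each dose comparison, POLR2A (0.90, 0.86, 1.63 and 1.59, in the same order). These POLR2A calls were also made after centring. POLR2H was among those that fell at 1000 nM (-0.75 in XG1 libraries and -0.70 in AMO1 at 1000 nM), though in AMO1 not after centring (-0.36, adjusted p = 0.0884). Of 20 pausing and elongation genes, 2 rose and 4 fell in XG1 libraries and 1 rose and 3 fell in AMO1 at 1000 nM. ELL, an elongation factor, rose in both (0.66 and 0.60), and LARP7, which protects the 7SK RNA, fell in both (-1.07 and -0.90), in AMO1 not after centring (-0.58, adjusted p = 0.0594). CDK12 fell in all 4 dose comparisons (-1.03, -1.10, -0.65 and -0.90, in the same order), also after centring. Of 10 TFIIH genes 1 fell in each line at 1000 nM, CDK7 itself (-0.79 and -0.63), and neither call was made after centring (-0.51, adjusted p = 0.0897 and -0.32, adjusted p = 0.298).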

How the data were processed

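RNA of 18 libraries (2 lines, 3 treatments, 3 replicates each) was read from its 3′ ends after TRIzol lysis, per the labels' protocols. The deposited tables give 1 value per gene symbol and library, FPKM made by the authors with HISAT2, Cuffnorm and the build hg19, per the submitters' processing notes. The unit rests on the name Cuffnorm there. The versions, the annotation and any use of strand were not given in the sources used here. Depth is unknown, so the precision rests on the spread between replicates, which the fit below takes over all groups and partly from other genes.

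The 12204 genes whose mean reached 1 FPKM in any group were tested in limma 3.58.1 (R 4.3.3, statmod 1.5.0; trend, robust) on log2(FPKM + 1), with 1 fit over all 18 libraries, two-sided, Benjamini-Hochberg adjustment over those genes and a threshold of 0.05. The script was checked on simulated data. Changes are given ± SE in log2 units and understate the change of low genes. There were 9 comparisons. Per line these were 100 nM and 1000 nM against DMSO and the higher dose against the lower, and across lines the response of XG1 minus that of AMO1 at either dose and XG1 against AMO1 in DMSO. The 26 alternatives were pseudocounts of 0.1 and 5, no filter, centring each library on its median, quantile normalization, scaling to 44 spike-ins, fitting only the libraries compared, a replicate block, and leaving out each of the 18 libraries.

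The members and lists were chosen with earlier results of these data known. Every called member is named. Library values are given for up to 5 called members per direction with the largest changes and no overlap between groups, and always for MED1, MED12, MED14, MED26, TAF1, TAF7, TBP, GTF2B, GTF2E1 and GTF2F1. Of each pathway list, up to 3 called genes per direction and comparison could be named. TAF3, GTF2A1, GTF2E2, MED16, MED28 and MED30 were named after their values were seen, as were the genes given for the difference of the lines or as called under another setting alone.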

Additional observations from a re-analysis of the deposited data

How the results depend on the processing

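The number of genes called, of 49, was compared over 26 alternatives. In XG1 libraries at 100 nM it was 3, and 5 with a pseudocount of 5, 9 after centring on the library median, 14 after quantile normalization and 5 when only the libraries compared were fitted. At 1000 nM it went from 9 to 14 after quantile normalization. In AMO1 at 100 nM it went from 2 to 4 after quantile normalization and to 0 when only the libraries compared were fitted. The difference of the lines' responses went from 0 to 1 at 100 nM after centring and after quantile normalization, and from 0 to 1 at 1000 nM after quantile normalization. Leaving out 1 library gave 2 to 6 for XG1 at 100 nM, 3 to 12 for XG1 at 1000 nM, 0 to 4 for AMO1 at 100 nM, 4 to 11 for AMO1 at 1000 nM, 16 to 23 for the lines in DMSO, and 0 to 0 for the dose steps and for the differences of the lines. XG1 at 1000 nM had 3 calls without XG1 1000 nM replicate 2 and 5 without XG1 DMSO replicate 1. AMO1 at 1000 nM had 4 without AMO1 1000 nM replicate 1 or 2 and 5 without AMO1 DMSO replicate 2. AMO1 at 100 nM had 0 without AMO1 DMSO replicate 2, 4 without AMO1 DMSO replicate 3, and 1 without AMO1 DMSO replicate 1 or any 1 AMO1 100 nM library. XG1 at 100 nM had 6 without AMO1 DMSO replicate 3, and 5 without XG1 1000 nM replicate 2 or AMO1 100 nM replicate 2. Only the construction of these settings is known; the cause was not tested.

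Little shared deviation was seen between libraries of the same replicate number. Their deviations from the group means had a median correlation of 0.02 (-0.21 to 0.11 over 45 pairs), and 7 of 18 libraries correlated best with their own number. This cannot show whether the libraries were prepared in numbered sets. With the replicate block the calls were 3, 8, 2 and 7 in the 4 dose comparisons (XG1 then AMO1, low dose first), 19 for the lines and 0 in the others. It ended the calls of MED22 in XG1 libraries and MED21 in AMO1 at 1000 nM and of MED8 in DMSO.

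Signs were followed for the called changes and for the genes whose library values are always given. Other uncalled changes were not followed, and some of them reversed too, such as TAF10 in XG1 libraries at 1000 nM (-0.009, and 0.31 after quantile normalization). No called change reversed under any alternative. The reversals among the genes followed were of uncalled changes. After centring and quantile normalization, respectively, they were GTF2B in AMO1 at 100 nM (0.12 and 0.049) and 1000 nM (0.18 and 0.12), TBP in AMO1 at 100 nM (0.14 and 0.079) and 1000 nM (0.22 and 0.18), MED26 in AMO1 at 1000 nM (0.24 and 0.17), MED12 (0.006 and 0.034) and MED14 (0.020 and 0.032) in AMO1 at 100 nM, and in XG1 libraries at 1000 nM GTF2E1 (0.16 and 0.16), MED12 (0.12 and 0.11), MED14 (0.032 and 0.020) and TAF1 (0.10 and 0.12). TAF7 reversed after centring in AMO1 at 100 nM (0.087) and 1000 nM (0.036), and after quantile normalization in XG1 libraries at 100 nM (0.075) and between the lines (0.16). MED12 reversed between the lines after centring (0.018) and spike-in scaling (0.002). With 1 library left out, these changes spanned 0: GTF2B in AMO1 at 100 nM (-0.22 to 0.082), GTF2E1 in XG1 at 1000 nM (-0.29 to 0.17), GTF2F1 in AMO1 at 100 nM (-0.049 to 0.22) and 1000 nM (-0.021 to 0.21) and in XG1 at 100 nM (-0.014 to 0.36), MED12 in XG1 at 100 nM (-0.15 to 0.041) and 1000 nM (-0.22 to 0.016) and between the lines (-0.15 to 0.045), MED14 in AMO1 at 100 nM (-0.26 to 0.021), MED26 in AMO1 at 1000 nM (-0.25 to 0.019), TAF1 in XG1 at 1000 nM (-0.49 to 0.012), TAF7 in XG1 at 100 nM (-0.21 to 0.15) and between the lines (-0.29 to 0.068), and TBP in AMO1 at 100 nM (-0.18 to 0.083) and XG1 at 1000 nM (-0.050 to 0.31). What depth limits could not be set, since the files hold no counts.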
